A study of Mus musculus with 11 samples.

Results

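The 10 genes described here are a small set tied to pericytes, the contractile cells that wrap capillaries, and to the ATP-sensitive potassium channel. They are Pdgfrb, Cspg4, Notch3, Mcam, Anpep and Vtn as pericyte genes, and Kcnj8, Abcc9, Kcnj11 and Abcc8 as the channel's subunits. Each was taken from the rows of the value table that pair with exactly 1 gene symbol, keeping the row with the highest mean over all arrays for a gene, and all 10 were found among the 30142 genes so measured. Every one of them had a single such row. The arrays compare the carotid body, an oxygen-sensing organ at the fork of the carotid artery, with the adrenal medulla and the superior cervical ganglion, a sympathetic ganglion that lies close to it. The mice were C57B6 wildtype animals of both sexes, 2 months old, with no treatment or genetic change in any group. Each of the 3 carotid body arrays came from a pool of 10 mice, and each of the 4 adrenal medulla and 4 ganglion arrays from a pool of 3 mice. A replicate is therefore a pool, the labels do not say how mice were divided among pools, and the p-values measure the spread between these pools only.

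Values are log2 array signals, and levels are compared between tissues for 1 gene, never between genes. A signal was read against a background bound, set per tissue at the 95th percentile of 540 vomeronasal receptor and keratin-associated protein genes, families taken as silent in these organs. That bound was 5.41 in carotid body, 5.36 in adrenal medulla and 5.45 in ganglion, and 56%, 54.1% and 54.2% of all genes lay above it. Every array held values over 16, which a 16-bit scan cannot give on a log2 scale. The folds therefore hold on the deposited scale and may not be linear folds of RNA. In bulk RNA, fewer cells of a type and less RNA per cell cannot be told apart. The arrays labelled adrenal medulla also carried RNA of the adrenal cortex, with cortical marker means of 15.79 to 16.05. Their values are therefore not those of medulla alone.

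Pericytes are recruited to growing vessels by PDGF-B from the endothelium, which acts on their receptor PDGFR-beta, and Notch3 helps to keep mural cells mature. The ATP-sensitive potassium channel joins a pore (Kir6.1 from Kcnj8 or Kir6.2 from Kcnj11) to a sulfonylurea receptor (SUR2 from Abcc9 or SUR1 from Abcc8), opens as the energy state of the cell drops, and hyperpolarises it. Kir6.1 with SUR2 is the form of vascular muscle and pericytes, where opening dilates the vessel, while Kir6.2 with SUR1 is the form of the pancreatic beta cell and of many neurons.

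Of the 10 genes, 5 were higher in the carotid body than in the adrenal medulla (Cspg4, Notch3, Mcam, Anpep and Abcc9), where 6.06% of all genes were called higher and 4.95% lower. A call needs both a limma p under 0.05 after Benjamini-Hochberg adjustment over all genes and a log2 difference of 1 or more, which is 2-fold. In that comparison 0 of the 10 were called lower in carotid body by limma, and 1, Abcc8, was lower at an unadjusted p under 0.05. Against the ganglion, 5 were higher in carotid body (Pdgfrb, Cspg4, Notch3, Anpep and Abcc9) and 1, Mcam, was lower, against 5.61% and 8.28% of all genes. Adrenal medulla was higher than ganglion for 3 (Pdgfrb, Kcnj8 and Abcc9) and lower for Mcam, against 5.72% and 7.50%. The median difference of the 10 genes was 0.73, 1.28 and 0.46 log2 units in the 3 comparisons, where all genes had medians of 0.05, -0.02 and -0.08. Centring each array on its median moved the first of these medians over all genes to -0.10. The 3 comparisons share their arrays and are not independent of each other.

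**Figure D1:**
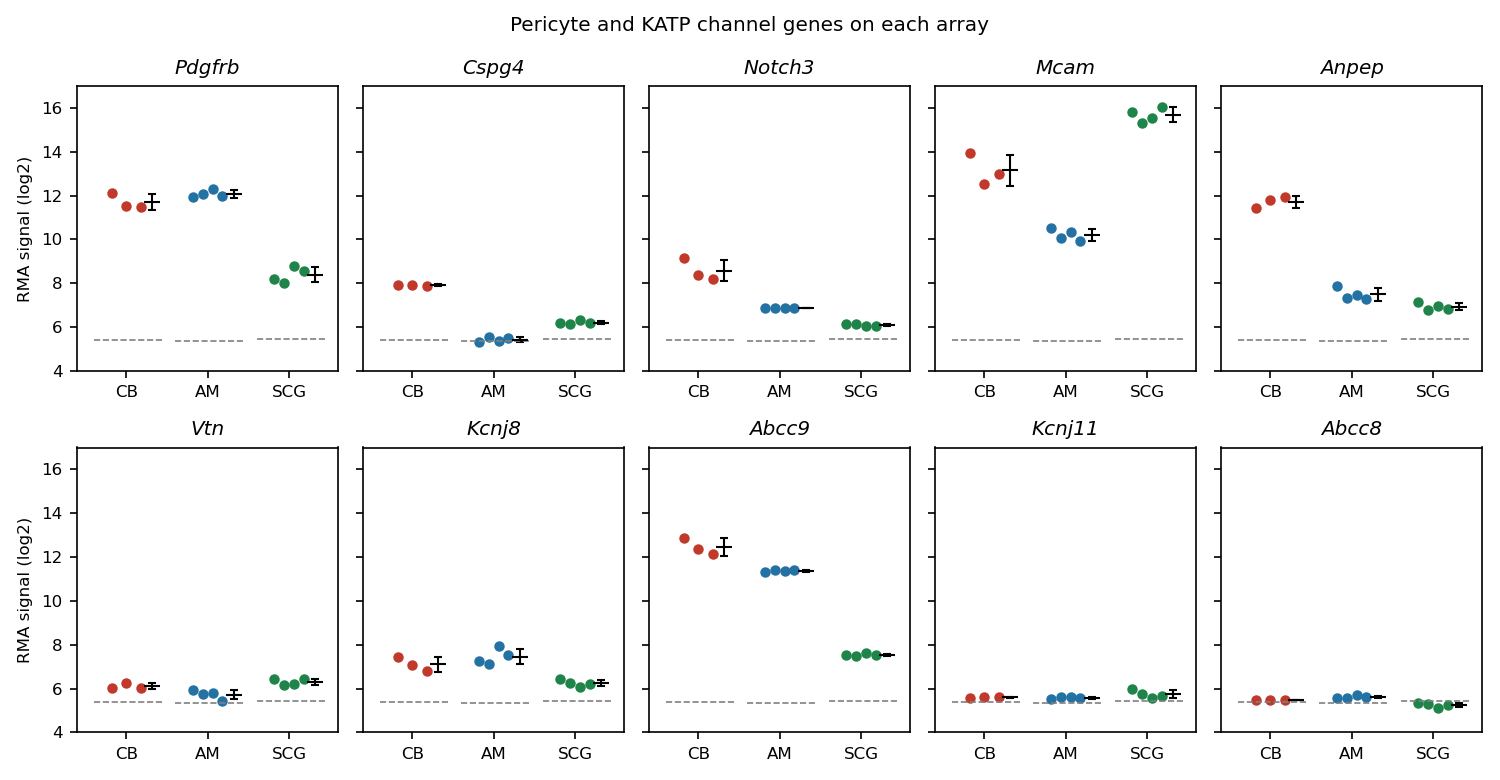
Log2 signal (vertical axis) of each of the 10 genes on each array of carotid body (CB, 3 arrays), adrenal medulla (AM, 4) and superior cervical ganglion (SCG, 4). Points are arrays, black marks are means with SD, and the dashed line is the background bound. Abcc9 and Pdgfrb sit low in ganglion, Mcam sits highest there, and Kcnj11 and Abcc8 lie near the bound in every tissue.

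**Figure D2:**
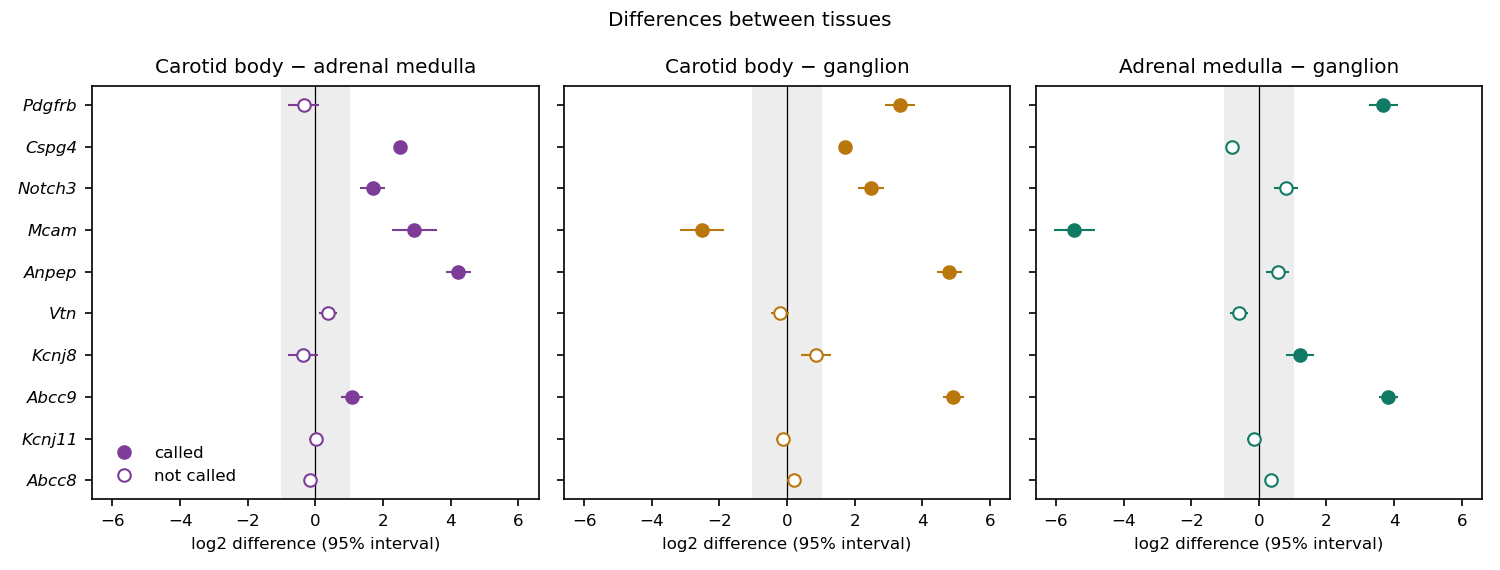
Log2 difference between tissues (horizontal axis) with its 95% interval from limma for the 10 genes, with 1 panel for each comparison. Filled points are called, open points are not, and the grey band holds differences under 2-fold. Mcam and Pdgfrb lie on opposite sides of 0 in both panels that involve the ganglion.

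The channel genes of the vascular form, Kcnj8 and Abcc9, were above the background bound on every array. Those of the beta cell form, Kcnj11 and Abcc8, lay near it in all 3 tissues. Kcnj11 was also above it on every array, but only just, and Abcc8 was under it in ganglion. Kcnj8 and Abcc9 are neighbours on chromosome 6 and Kcnj11 and Abcc8 on chromosome 7, each pair with 0 protein-coding genes between them in RefSeq's GRCm38.p6 annotation. Promoter sequences were available for 7 of the 10 genes. The 250 bases before the transcription start are printed here for Kcnj8 and Abcc9, because these neighbours form 1 channel, and for Notch3, Anpep and Cspg4, the pericyte genes called higher in carotid body against both other tissues. Each is shown 5′ to 3′ in the direction of transcription. The first 4 are on the minus strand of GRCm38.p6, at chr6:142571615-142571864, chr6:142702275-142702524, chr17:32166891-32167140 and chr7:79848211-79848460, and Cspg4 is on the plus strand at chr9:56864854-56865103. Capitals mark TGGGAA, the core bound by the Notch effector RBPJ, and ACGTG or GCGTG, the core of the hypoxia response element, on either strand.
Kcnj8: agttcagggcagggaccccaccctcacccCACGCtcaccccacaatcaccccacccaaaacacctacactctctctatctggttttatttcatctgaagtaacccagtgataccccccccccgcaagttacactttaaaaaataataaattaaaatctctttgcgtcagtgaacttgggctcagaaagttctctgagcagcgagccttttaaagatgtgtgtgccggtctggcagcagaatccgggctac
Abcc9: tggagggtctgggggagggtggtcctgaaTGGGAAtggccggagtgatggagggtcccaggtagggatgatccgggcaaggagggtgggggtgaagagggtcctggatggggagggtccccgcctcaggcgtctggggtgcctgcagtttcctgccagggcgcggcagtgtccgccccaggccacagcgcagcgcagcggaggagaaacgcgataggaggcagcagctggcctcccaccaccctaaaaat
Notch3: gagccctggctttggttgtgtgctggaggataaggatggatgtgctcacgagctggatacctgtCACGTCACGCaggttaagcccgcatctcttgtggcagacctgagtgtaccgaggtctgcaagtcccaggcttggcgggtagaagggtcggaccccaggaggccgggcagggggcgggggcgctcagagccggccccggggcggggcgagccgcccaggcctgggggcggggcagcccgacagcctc
Anpep: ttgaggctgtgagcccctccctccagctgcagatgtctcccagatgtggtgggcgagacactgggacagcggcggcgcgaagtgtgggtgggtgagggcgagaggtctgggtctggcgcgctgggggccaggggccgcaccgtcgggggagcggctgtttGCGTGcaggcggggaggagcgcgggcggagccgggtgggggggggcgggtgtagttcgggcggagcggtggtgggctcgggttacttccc
Cspg4: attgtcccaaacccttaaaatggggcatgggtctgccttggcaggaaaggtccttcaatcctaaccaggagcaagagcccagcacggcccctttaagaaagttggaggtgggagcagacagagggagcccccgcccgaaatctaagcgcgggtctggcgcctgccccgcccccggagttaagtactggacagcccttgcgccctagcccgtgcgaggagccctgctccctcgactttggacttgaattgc
The Kcnj8 window held 1 hypoxia core 221 bases before the start, and the Abcc9 window 1 RBPJ core at the same distance. Notch3 held 2 hypoxia cores, at 186 and 181 bases, and Anpep 1 at 90 bases, while the Cspg4 window held neither core. Of 32851 mouse promoters of the same length, 38.6% held a hypoxia core and 21.6% an RBPJ core, so such matches are common and are not binding sites by themselves. The GC box GGGCGG, which is in 32.7% of all promoters, occurred in 4 copies in Notch3, 3 in Anpep, 2 in Cspg4 and 1 in Abcc9, and was not found in the Kcnj8 window. The G and C content was 49.2% in the Kcnj8 window against 66.8% in the Abcc9 window.

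Abcc9, the sulfonylurea receptor SUR2 (transcript cluster TC0600003379.mm.1), read 12.89, 12.37 and 12.13 on the carotid body arrays. Adrenal medulla read 11.30, 11.42, 11.37 and 11.41, and ganglion 7.55, 7.48, 7.61 and 7.54. The tissues did not overlap, and carotid body was highest, adrenal medulla next and ganglion lowest. The means were 12.46 ± 0.39 (SD, n = 3), 11.38 ± 0.05 (n = 4) and 7.54 ± 0.05 (n = 4). Abcc9 was 30.3-fold higher in carotid body than in ganglion (log2 difference 4.92, SE 0.14, limma adjusted p = 5.52e-09) and 14.2-fold higher in adrenal medulla than in ganglion (3.83, SE 0.13, adjusted p = 5.63e-09). The step from adrenal medulla to carotid body was 2.13-fold (1.09, SE 0.14, limma adjusted p = 0.000189). That difference lay close to the limit of 1 and was 0.87 without carotid body replicate 1, where it was no longer called.

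Kcnj8, the pore Kir6.1 (TC0600003378.mm.1), read 7.45, 7.06 and 6.79 on carotid body, 7.24, 7.12, 7.94 and 7.54 on adrenal medulla, and 6.44, 6.26, 6.09 and 6.19 on ganglion. Carotid body and adrenal medulla overlapped, and every ganglion array lay below both. The means were 7.10 ± 0.33 (n = 3), 7.46 ± 0.36 and 6.25 ± 0.15 (n = 4 each). Adrenal medulla was 2.32-fold higher than ganglion (log2 difference 1.22, SE 0.19, limma adjusted p = 0.000379). Carotid body was 1.81-fold above ganglion (0.85, SE 0.20, adjusted p = 0.00682), under the 2-fold limit, although without carotid body replicate 3 the difference was 1.01 and called. Between carotid body and adrenal medulla Kcnj8 differed by -0.36 with a 95% interval from -0.81 to 0.08 (limma adjusted p = 0.219). The pore gene thus had no called difference where its receptor gene had 1, a contrast between the genes that was not tested.

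Kcnj11, the pore Kir6.2 (TC0700003030.mm.1), read 5.58, 5.62 and 5.62 on carotid body, 5.54, 5.62, 5.62 and 5.55 on adrenal medulla, and 5.98, 5.76, 5.56 and 5.64 on ganglion. The values of all tissues overlapped and lay just above the background bound. Its 95% intervals were -0.19 to 0.23 for carotid body minus adrenal medulla, -0.34 to 0.07 for carotid body minus ganglion and -0.34 to 0.04 for adrenal medulla minus ganglion. Abcc8, the sulfonylurea receptor SUR1 (TC0700003031.mm.1), read 5.46 on all 3 carotid body arrays, 5.58, 5.58, 5.70 and 5.62 on adrenal medulla, and 5.35, 5.28, 5.13 and 5.26 on ganglion. All 4 ganglion arrays were under the bound. Abcc8 differed by 0.37 between adrenal medulla and ganglion (limma adjusted p = 0.00102) and by 0.21 between carotid body and ganglion (adjusted p = 0.0427), both under the fold limit.

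Identical values on several arrays occur for both of these genes. The 3 carotid body values of Abcc8 were the same, and 4 arrays shared 1 value of Kcnj11. Over all genes, 55.5% had at least 2 identical values among the 11 arrays and 34.5% at least 3, so a small SD at a dim gene may not be a measure of biological spread.

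The difference between the genes of each pair was also taken within each array, which removes any factor that scales a whole array. Kcnj8 minus Kcnj11 was 1.49 ± 0.35 in carotid body (n = 3), 1.88 ± 0.35 in adrenal medulla and 0.51 ± 0.04 in ganglion (n = 4 each). Abcc9 minus Abcc8 was 7.01 ± 0.39, 5.76 ± 0.07 and 2.29 ± 0.13 in the same order. Abcc8 was under the background bound on all 4 ganglion arrays and near it elsewhere, so the receptor pair is a difference from background in ganglion, not an exact difference of levels. Kcnj11 lay just above the bound in every tissue, so the pore pair is also close to a difference from background. The receptor pair separated all 3 tissues without overlap, and the pore pair separated the ganglion from the others. In two-sided exact permutation tests the 3 receptor comparisons gave p = 0.0571, 0.0571 and 0.0286 (0.0686 each after Benjamini-Hochberg adjustment over 6 tests). The pore pair gave exact p = 0.229 for carotid body against adrenal medulla (adjusted 0.229). Against the ganglion it gave exact p = 0.0571 for carotid body and 0.0286 for adrenal medulla (adjusted 0.0686 each). The smallest p is 0.0571 for 3 arrays against 4 and 0.0286 for 4 against 4, and the smallest adjusted p possible here is 0.0571, so no comparison could pass 0.05.

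**Figure D3:**
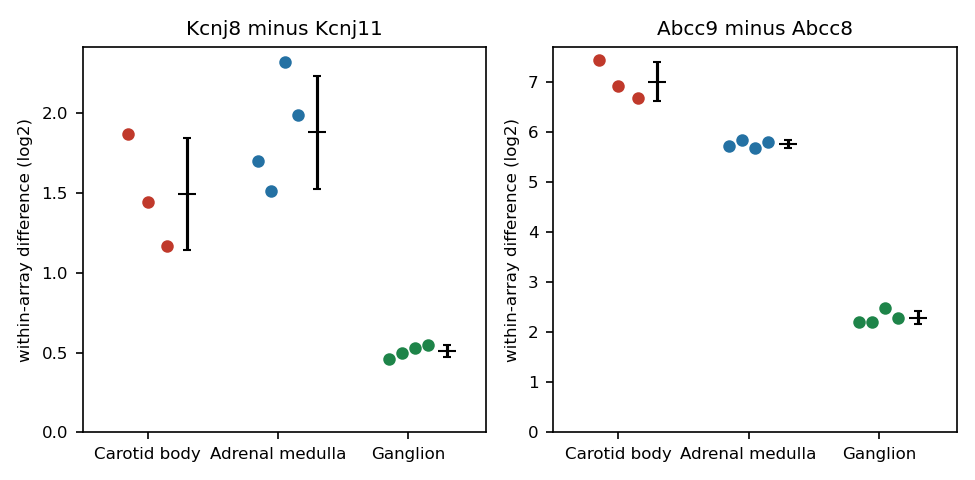
Difference in log2 signal between the genes of a pair within each array (vertical axis), for Kcnj8 minus Kcnj11 and Abcc9 minus Abcc8, by tissue. Points are arrays and black marks are means with SD. The receptor pair falls from 7.01 in carotid body to 2.29 in ganglion, and only the steps between tissues are comparable because probes differ in brightness.

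Other inward rectifier channels were measured for 13 genes, and carotid body was higher than adrenal medulla for 3 and lower for 1. Against the ganglion, 2 were lower in carotid body, while limma called 0 higher (1 at an unadjusted p under 0.05). Kcnj3, a G protein-gated channel subunit of neurons and atrium, had means of 8.78 ± 0.37 in carotid body, 5.98 ± 0.30 in adrenal medulla and 11.80 ± 0.36 in ganglion (3, 4 and 4 arrays). It was 6.94-fold higher in the carotid body than in the adrenal medulla (limma adjusted p = 6.43e-06) and lower than in ganglion by a log2 difference of -3.02 (adjusted p = 3.95e-06). Kcnj10, the Kir4.1 channel of glia, exceeded adrenal medulla by 1.04 log2 units in carotid body (limma adjusted p = 0.00218). Kcnj13 was under the bound on all 4 adrenal medulla arrays and was at least 4.11-fold higher in carotid body (limma adjusted p = 8.89e-07). The gene called lower was Kcnj6, at 4.19 in carotid body and 5.25 in adrenal medulla, both under the bound, so it has no fold. Over the alternatives other than dropping the fold limit, 2 to 3 of the 13 were higher than in adrenal medulla and 0 to 1 lower, the 0 coming with dim genes removed. Between adrenal medulla and ganglion 1 was higher, Kcnj6, and 4 were lower. Kcnj16 was among the latter and was at least 2.53-fold higher in ganglion, with adrenal medulla under the bound (limma adjusted p = 5.26e-05). Kcnj3, Kcnj10 and Kcnj13 were highest in ganglion, where Kcnj8 was lowest. Of 9 other transporters of the ABCC family, 1 was higher and 1 lower in the carotid body than in the adrenal medulla. The export pump Abcc2 was at least 2.18-fold higher, with all 4 adrenal medulla arrays under the bound, and the nucleotide exporter Abcc4 was lower, at -1.54 (limma adjusted p = 9.92e-07 and 1.99e-05). Abcc5 was lower than in ganglion in carotid body and adrenal medulla, at -1.42 and -1.25 (limma adjusted p = 3.39e-05 and 3.76e-05). Median differences of the family were 0.00, -0.06 and -0.05 in the 3 comparisons, near those of all genes.

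Pdgfrb, the receptor that recruits pericytes (TC1800000623.mm.1), read 12.14, 11.51 and 11.50 on carotid body, 11.92, 12.06, 12.31 and 11.98 on adrenal medulla, and 8.18, 8.02, 8.77 and 8.56 on ganglion. Carotid body and adrenal medulla overlapped and both stood far above the ganglion. The means were 11.71 ± 0.37 (n = 3), 12.07 ± 0.17 and 8.38 ± 0.34 (n = 4 each). Pdgfrb was 10.1-fold higher in carotid body than in ganglion (log2 difference 3.33, SE 0.21, limma adjusted p = 8.66e-07) and 12.9-fold higher in adrenal medulla than in ganglion (3.68, SE 0.19, adjusted p = 7.98e-08). Carotid body minus adrenal medulla was -0.35, with a 95% interval from -0.81 to 0.10 (limma adjusted p = 0.243).

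Among 4 measured PDGF ligands, 2 were higher in carotid body than in ganglion and in adrenal medulla than in ganglion. Pdgfb, the endothelial ligand of PDGFR-beta, had means of 8.08 ± 0.26 in carotid body, 7.88 ± 0.36 in adrenal medulla and 6.55 ± 0.14 in ganglion. It was higher than in ganglion by 1.53 in carotid body and 1.33 in adrenal medulla (limma adjusted p = 8.54e-05 and 0.000112). Pdgfd, another ligand of that receptor, was under the background bound in ganglion (5.41) and was at least 14.6-fold higher in carotid body and at least 16.9-fold higher in adrenal medulla. Between carotid body and adrenal medulla, limma called 0 of the 4 ligands (1, Pdgfa, at an unadjusted p under 0.05). Pdgfb and Pdgfd were thus lowest in ganglion, as Pdgfrb was. Pdgfra shares its transcript cluster with several symbols and was not analysed here.

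Markers of endothelium moved with these genes. The mean of 9 endothelial markers was 10.36 to 10.49 over carotid body arrays, 10.30 to 10.63 over adrenal medulla arrays and 7.13 to 7.48 over ganglion arrays. All 9 were higher in carotid body than in ganglion, while 4 were higher and 3 lower than in adrenal medulla, and the part of endothelial content in the differences against the ganglion was not tested. As a description added after the values were seen, the endothelial mean was subtracted from each gene on each array. Pdgfrb then stood at 1.27 ± 0.32 in carotid body, 1.57 ± 0.25 in adrenal medulla and 1.06 ± 0.21 in ganglion, with carotid body and ganglion overlapping. Abcc9 stood at 2.02 ± 0.37, 0.88 ± 0.17 and 0.22 ± 0.10, without overlap and in the same order. Between carotid body and adrenal medulla, log2 differences of the endothelial markers ran from -3.21 (Plvap) to 2.39 (Vwf), with Cdh5 at 1.27. A difference between these tissues after subtraction therefore depends on which markers are averaged. Kcnj8 minus the endothelial mean was lower in carotid body than in ganglion by -2.27, the opposite sign to its own difference. Cspg4 and Notch3 also turned sign against the ganglion, at -1.40 and -0.64, the latter with overlap, whereas Anpep kept a difference of 1.67. The endothelial mean differed more between carotid body and ganglion than Kcnj8, Cspg4 and Notch3 did, and less than Anpep did. These signs therefore follow from the subtraction itself, and the subtractions have no test.

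**Figure D4:**
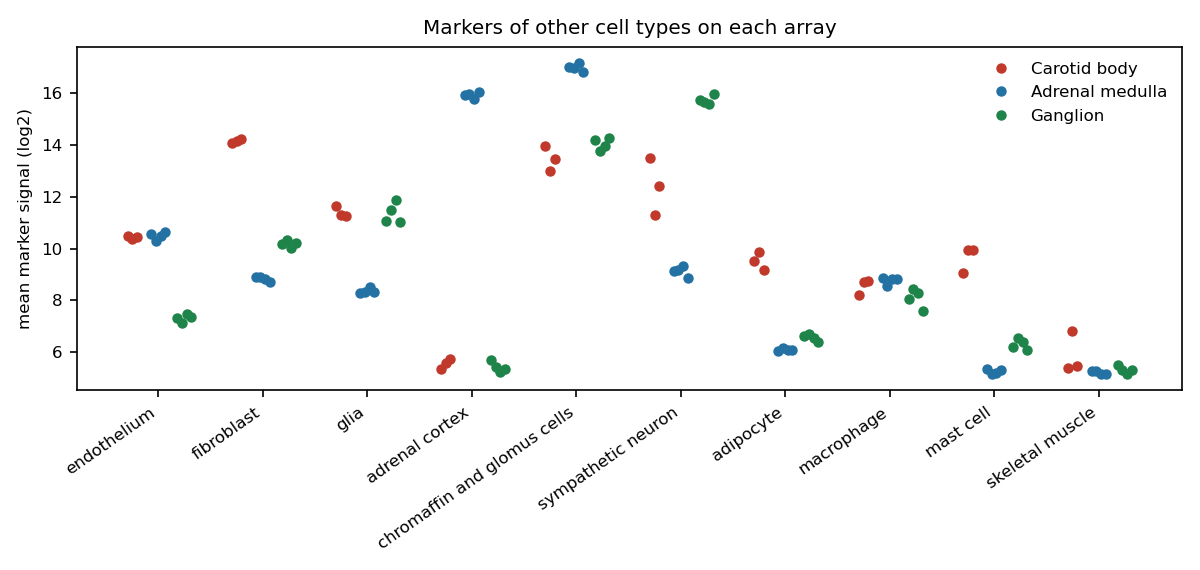
Mean log2 signal of marker genes of each cell type (vertical axis) on each array, coloured by tissue. Points are arrays. Endothelial markers lie between 10.30 and 10.63 in carotid body and adrenal medulla and at or below 7.48 in ganglion, and adrenal cortex markers are high on the adrenal medulla arrays only.

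Notch3, the Notch receptor of mural cells (TC1700001834.mm.1), read 9.13, 8.39 and 8.20 on carotid body, 6.89, 6.88, 6.89 and 6.89 on adrenal medulla, and 6.14, 6.14, 6.05 and 6.04 on ganglion. The tissues did not overlap, with carotid body highest and ganglion lowest. Carotid body, at 8.57 ± 0.49 (n = 3), was 3.23-fold above adrenal medulla (log2 difference 1.69, SE 0.17, limma adjusted p = 2.97e-05) and 5.59-fold above ganglion (2.48, SE 0.17, adjusted p = 2e-06). Adrenal medulla exceeded ganglion by 0.79 (limma adjusted p = 0.00257), under the fold limit. The adrenal medulla mean was 6.88 ± 0.00 (n = 4), with 3 of 4 values identical, so that its own spread was not measured there.

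Of 5 Notch ligands, 2 were higher in the carotid body than in the adrenal medulla and 1 higher than in ganglion. Jag1, a ligand that smooth muscle and endothelium present to Notch receptors, had means of 11.11 ± 0.50 in carotid body, 7.73 ± 0.16 in adrenal medulla and 7.73 ± 0.21 in ganglion. It was 10.4-fold higher in carotid body than in each of the others (limma adjusted p = 6.88e-07 and 7.66e-07). Jag2 was higher in the carotid body than in the adrenal medulla by 1.22 (limma adjusted p = 0.000489). The endothelial ligand Dll4 had no called difference in any comparison, with means of 7.10, 7.22 and 6.39.

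Of 7 other Notch receptors and nuclear partners, 1 was higher in the carotid body than in the adrenal medulla and 2 were higher than in ganglion. Notch1 differed from adrenal medulla by 1.09 (limma adjusted p = 0.00207), a call lost (0 of 7) under median centring and without carotid body replicate 1. Notch2 and the DNA-binding effector Rbpj differed from ganglion by 1.44 and 1.13 (limma adjusted p = 0.000132 and 1.38e-05). Adrenal medulla was higher than ganglion for Notch2, by 1.27, and for the coactivator Maml2, by 1.03 (limma adjusted p = 0.000168 and 6.99e-05). The count there was 1 with array weights, with the control feature covariate, and without adrenal medulla replicate 1 or ganglion replicate 4. Among 5 Notch target genes, carotid body was higher than adrenal medulla for 2, and against the ganglion for 1 and lower for 1. Hey1 and Hey2, repressors induced by Notch, were higher in the carotid body than in the adrenal medulla by 1.46 and 1.85 (limma adjusted p = 7.04e-05 and 0.000705). Hes1 was higher than in ganglion by 1.27 (adjusted p = 7.39e-05), whereas Hey2 was lower, at -1.03 (adjusted p = 0.02). The Hey2 call against the ganglion was lost (0 of 5 lower) under repeated quantile normalization and without carotid body replicate 1 or 2 or ganglion replicate 2 or 3. Heyl was called in no comparison, with means of 6.80, 6.92 and 6.59. Hey1 and Hey2 were lower in adrenal medulla than in ganglion, at -1.48 and -2.88 (limma adjusted p = 2.25e-05 and 9.79e-06), where Notch3 was not called.

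Cspg4, the NG2 proteoglycan on the pericyte surface (TC0900000686.mm.1), read 7.94, 7.94 and 7.87 on carotid body, 5.30, 5.54, 5.37 and 5.48 on adrenal medulla, and 6.18, 6.12, 6.31 and 6.19 on ganglion. The tissues did not overlap, and adrenal medulla, with 1 of 4 arrays under the background bound, was lowest. The means were 7.92 ± 0.04 (n = 3), 5.43 ± 0.11 and 6.20 ± 0.08 (n = 4 each). Carotid body was at least 5.59-fold above adrenal medulla, with the dim array set to the bound (log2 difference 2.49, SE 0.08, limma adjusted p = 3.89e-09) and 3.29-fold above ganglion (1.72, SE 0.08, adjusted p = 1.13e-07). The order of Cspg4 was not that of Pdgfrb, whose adrenal medulla arrays were as high as those of carotid body. NG2 is also made by glial precursor cells. The mean of 6 glial markers was 11.28 to 11.66 in carotid body, 8.30 to 8.51 in adrenal medulla and 11.04 to 11.87 in ganglion, and their part in the Cspg4 values was not tested.

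Anpep, the surface aminopeptidase CD13 (TC0700003570.mm.1), read 11.42, 11.79 and 11.95 on carotid body, 7.89, 7.34, 7.46 and 7.28 on adrenal medulla, and 7.15, 6.79, 6.96 and 6.82 on ganglion. Every carotid body array stood far above all others. The means were 11.72 ± 0.27 (n = 3), 7.49 ± 0.28 and 6.93 ± 0.16 (n = 4 each). Anpep was 18.7-fold higher in the carotid body than in the adrenal medulla (log2 difference 4.23, SE 0.17, limma adjusted p = 2.4e-08) and 27.6-fold higher than in ganglion (4.79, SE 0.17, adjusted p = 1.85e-08). CD13 is also found on fibroblasts and myeloid cells. The mean of 7 fibroblast markers was 14.09 to 14.25 in carotid body, 8.73 to 8.91 in adrenal medulla and 10.02 to 10.35 in ganglion, all 7 being higher in carotid body in both comparisons. Macrophage markers lay between 8.22 and 8.74 in carotid body, 8.54 and 8.88 in adrenal medulla and 7.61 and 8.46 in ganglion. The part of either cell type in the Anpep values was not tested. Among 6 other surface peptidases, 1 was higher and 1 lower in the carotid body than in the adrenal medulla. The neprilysin gene Mme was higher by 1.76 and Erap1, which trims peptides for antigen presentation, was lower, at -1.42 (limma adjusted p = 4.65e-07 and 0.000131). Against the ganglion 3 were higher, namely Ece1, the endothelin-converting enzyme, by 1.27, Mme by 1.17 and Enpep, which cleaves angiotensin II, by 1.03 (limma adjusted p = 0.000164, 8.93e-06 and 6.71e-05). Adrenal medulla was higher than ganglion for 4, Erap1, Enpep, Ece1 and the angiotensin-converting enzyme Ace, by 2.03, 1.53, 1.53 and 1.19.

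Mcam, the adhesion molecule CD146 (TC0900000500.mm.1), read 13.93, 12.55 and 12.99 on carotid body, 10.53, 10.08, 10.36 and 9.92 on adrenal medulla, and 15.83, 15.30, 15.52 and 16.06 on ganglion. The tissues did not overlap and ganglion was highest, an order that no other pericyte gene with a called difference had. Ganglion exceeded adrenal medulla 43.8-fold (adrenal medulla minus ganglion, log2 difference -5.45, SE 0.28, limma adjusted p = 6.8e-08) and carotid body 5.73-fold (carotid body minus ganglion -2.52, SE 0.30, adjusted p = 6.71e-05). Carotid body in turn was 7.65-fold above adrenal medulla (2.93, SE 0.30, limma adjusted p = 2.82e-05). CD146 is also carried by endothelium and some neurons. The mean of 8 neuronal markers was 15.59 to 15.99 in ganglion, 8.86 to 9.35 in adrenal medulla, and 13.51, 11.31 and 12.43 on carotid body replicates 1 to 3. The order of replicates was that of Mcam in carotid body, but not in adrenal medulla or ganglion. The part of neuronal RNA in the Mcam values was not tested.

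Vtn, which encodes the matrix protein vitronectin (TC1100001162.mm.1), read 6.03, 6.27 and 6.04 on carotid body, 5.94, 5.74, 5.80 and 5.45 on adrenal medulla, and 6.43, 6.18, 6.22 and 6.45 on ganglion. Carotid body and ganglion overlapped, and no difference reached the fold limit. The log2 differences were 0.38 for carotid body minus adrenal medulla, -0.20 for carotid body minus ganglion and -0.58 for adrenal medulla minus ganglion (limma adjusted p = 0.0388, 0.244 and 0.00194). Among 7 vitronectin receptors and partners, Itgb8 was higher and Itgb5 lower in the carotid body than in the adrenal medulla, by 3.01 and -1.98 log2 units (limma adjusted p = 1.71e-06 and 2.97e-06). Itgb5 was higher than in ganglion by 2.21 in carotid body and 4.20 in adrenal medulla (limma adjusted p = 1.66e-06 and 4.32e-09). Both encode integrin beta chains that pair with the alpha V chain of Itgav, which had no called difference.

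The wider set of mural genes was chosen with these data's results in view and is no independent evidence of direction. Of 15 other mural cell genes measured, 9 were higher in the carotid body than in the adrenal medulla, and limma called 0 lower (0 at an unadjusted p under 0.05). Against the ganglion, 5 were higher and 1 lower in carotid body, and adrenal medulla was higher than ganglion for 3 and lower for 4. The medians of the set were 1.63, 0.78 and -0.12. Rgs5, a regulator of G protein signalling typical of pericytes, had means of 19.04 ± 0.20, 13.57 ± 0.09 and 11.79 ± 0.39 in carotid body, adrenal medulla and ganglion. It was 44.3-fold above adrenal medulla and 153-fold above ganglion in carotid body (limma adjusted p = 6.27e-09 and 1.95e-09), where its signal was near the top of the scale. Glomus cells of the carotid body also express Rgs5, as is known from earlier work, so the gene does not mark pericytes alone there.

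Ndufa4l2, a hypoxia-induced mitochondrial gene of pericytes, had means of 14.88 ± 0.43 in carotid body, 13.25 ± 0.26 in adrenal medulla and 5.46 ± 0.14 in ganglion, where 3 of 4 arrays were under the background bound. With those arrays set to the bound it was at least 664-fold higher in carotid body and at least 215-fold higher in adrenal medulla than in ganglion (limma adjusted p = 7.73e-10 and 3.87e-10). Cox4i2, the hypoxia-responsive form of cytochrome c oxidase subunit IV, was 4.66-fold higher in the carotid body than in the adrenal medulla and 9.86-fold higher than in ganglion (limma adjusted p = 1.96e-05 and 1.25e-06). Both genes are also known from oxygen-sensing glomus cells. Rgs4, another regulator of G protein signalling, had means of 14.20 ± 0.21 in carotid body, 11.31 ± 0.32 in adrenal medulla and 14.66 ± 0.38 in ganglion. It was 7.45-fold above adrenal medulla in carotid body (limma adjusted p = 2.99e-06), differed from ganglion by -0.45 (adjusted p = 0.147), and was lower in adrenal medulla than in ganglion, at -3.35 (adjusted p = 2.78e-07). Art3, Steap4, Ebf1 and Cd248 were higher in the carotid body than in the adrenal medulla by 3.95, 2.80, 2.64 and 1.76 (limma adjusted p = 9.85e-08, 7.7e-07, 4.21e-07 and 0.000496). Of these, Steap4 and Cd248 were also higher than in ganglion, by 3.13 and 2.33 (adjusted p = 4.46e-07 and 5.21e-05). Art3 and Ebf1 were lower in adrenal medulla than in ganglion, at -3.15 and -1.86 (limma adjusted p = 1.22e-07 and 1.45e-06). Gucy1b1, the beta subunit of the nitric oxide receptor, was lower in carotid body than in ganglion, at -1.67 (limma adjusted p = 0.000801). The brain pericyte markers Higd1b and Atp13a5 were under the background bound in all 3 tissues.

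Contractile smooth muscle genes stood out in carotid body. Of 12 measured, 8 were higher than in adrenal medulla (limma called 0 lower, 1 at an unadjusted p under 0.05) and 10 higher than in ganglion (0 lower, 0 at an unadjusted p under 0.05). Acta2, smooth muscle actin, had means of 16.45 ± 0.21 in carotid body, 9.08 ± 0.10 in adrenal medulla and 7.85 ± 0.16 in ganglion, a 165-fold and a 386-fold difference from carotid body (limma adjusted p = 1.85e-11 and 4.19e-11). Myh11, the smooth muscle myosin heavy chain, was 57.1-fold and 84.1-fold higher in carotid body (adjusted p = 1.01e-09 and 1.62e-09). Myl9 and Tagln were 18-fold and 14.8-fold higher than in adrenal medulla. Of the 4 contractile genes higher in adrenal medulla than in ganglion, Mylk, the myosin light chain kinase, differed by 1.71 (limma adjusted p = 6.67e-07). Des, the intermediate filament desmin, was called in no comparison, with means of 6.05, 6.59 and 5.73. Skeletal muscle markers lay at 5.38, 6.80 and 5.48 on the carotid body arrays and at 5.14 to 5.49 on the others, with Myh1, Myh2 and Mylpf under the bound in every tissue. The contractile gene signal may come from pericytes, arterioles or larger arteries, which the arrays do not separate.

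**Figure D5:**
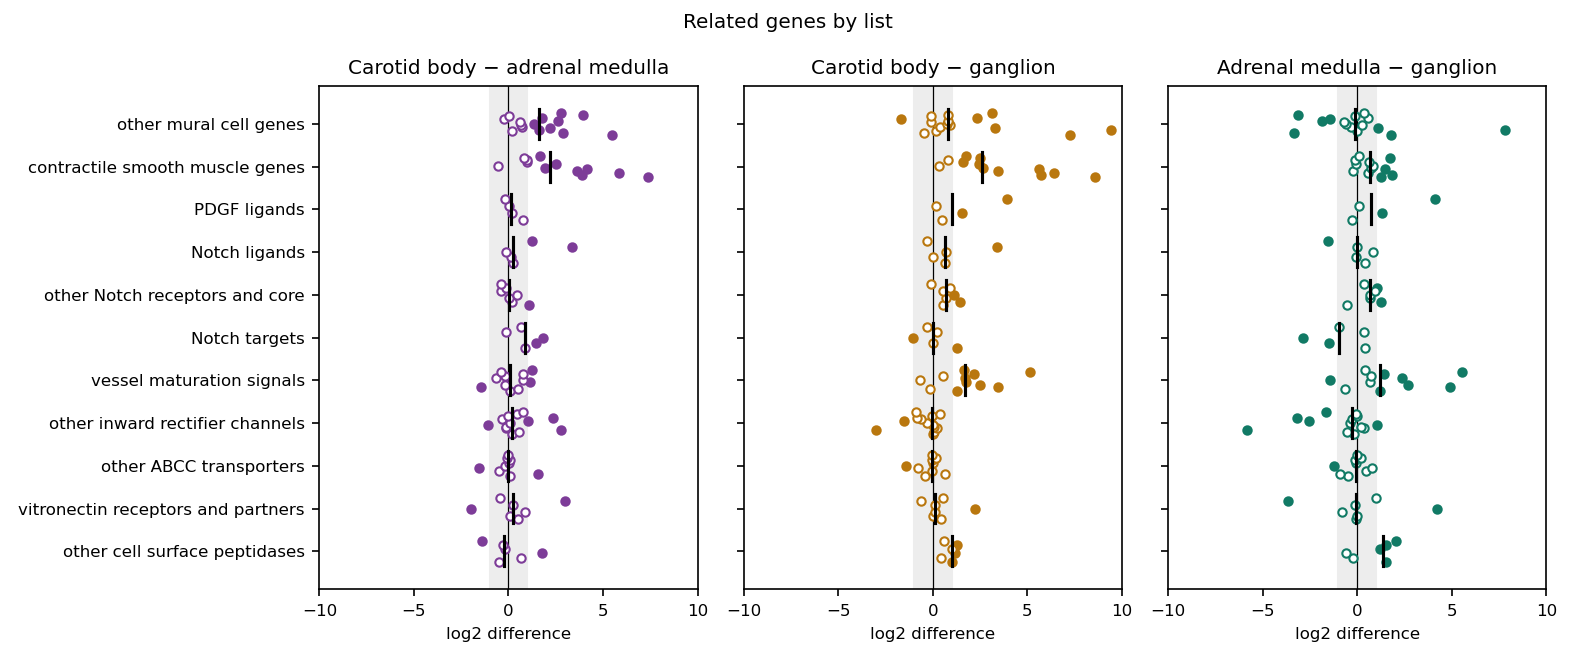
Log2 difference (horizontal axis) of each measured gene of the 11 related gene lists, with 1 panel for each comparison. Points are genes, filled where called, black bars are list medians, and the grey band holds differences under 2-fold. Contractile smooth muscle genes had medians of 2.20 against adrenal medulla and 2.58 against ganglion, and other ABCC transporters lay near 0.

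Signals of vessel maturation divided the tissues differently from the muscle genes. Of 11, 2 were higher and 1 lower in the carotid body than in the adrenal medulla (1 and 1 after centring each array on its median), whereas 8 were higher in carotid body than in ganglion, where limma called 0 lower (1 at an unadjusted p under 0.05). The 2 higher than in adrenal medulla were Acvrl1, the endothelial receptor ALK1, and S1pr1, a sphingosine 1-phosphate receptor, by 1.26 and 1.12 (limma adjusted p = 2.07e-06 and 1.53e-05). Eng, the TGF-beta co-receptor endoglin, was 35.4-fold higher in carotid body and 46.6-fold higher in adrenal medulla than in ganglion (limma adjusted p = 5.62e-09 and 8.38e-10). Tek, the angiopoietin receptor Tie2, was 10.9-fold higher in carotid body and 29.5-fold higher in adrenal medulla than in ganglion (adjusted p = 1.62e-09 and 1.36e-11). Tek was lower in the carotid body than in the adrenal medulla, at -1.43 (limma adjusted p = 4.69e-07). Tie1, the relative of Tie2, was 5.63-fold and 6.36-fold higher than in ganglion (limma adjusted p = 2.56e-07 and 2.41e-08). The TGF-beta receptor Tgfbr2 exceeded ganglion by 2.16 in carotid body, and the ligand Tgfb1 by 2.37 in adrenal medulla (limma adjusted p = 1.22e-06 and 7.72e-06). Angpt1, the Tie2 ligand that mural cells secrete, had 1 of 4 ganglion arrays under the bound and was at least 2.45-fold higher in carotid body and 2.28-fold in adrenal medulla (limma adjusted p = 0.000212 and 0.000191). Eng and Tek are mainly endothelial, and against the ganglion the endothelial marker means given above moved in the same direction. Between carotid body and adrenal medulla those means overlapped, but single endothelial markers went both ways. Kdr, Emcn and Plvap were lower in carotid body, as Tek was, and 4 of the 9 markers were higher. The part of endothelial content in these values was not tested.

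The remaining markers describe what the tissues held. Adrenal cortex markers had means of 15.79 to 16.05 on the adrenal medulla arrays and of 5.25 to 5.73 on all others, so the samples labelled adrenal medulla also carried cortical RNA. Markers of chromaffin and glomus cells lay at 13.02 to 13.97 in carotid body, 16.83 to 17.19 in adrenal medulla and 13.77 to 14.28 in ganglion. Of these 8 markers, 3 (Th, Dbh and Slc18a2) were lower in carotid body than in ganglion and 2 (Chga and Chgb) higher. The list therefore does not mark chromaffin and glomus cells alone. Adipocyte markers reached 9.16 to 9.89 in carotid body against 6.04 to 6.17 and 6.38 to 6.71, and mast cell markers 9.05 to 9.94 against 5.16 to 5.36 and 6.10 to 6.53. Of the 4 mast cell markers, 3 were higher in carotid body than in ganglion, whereas Kit was lower, with means of 7.23 and 8.71. The part of these cells in the values of the 10 genes was not tested.

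Profiles over the 11 arrays were compared by the root mean square difference after centring each gene on its own mean, over 19045 protein-coding genes, as a description. The genes nearest to Abcc9 were Txnip (0.234), Ptprb (0.271), Pde5a (0.320), Podxl (0.343) and Cdh5 (0.432). Pdgfrb was 27th of all genes from Abcc9, at 0.70, and Kcnj8 was 716th, at 1.67. Nearest to Pdgfrb were Flt1 (0.243), C1rb (0.305), Nxph4 (0.355), Efemp1 (0.366) and Lrrc32 (0.388). Cdh5 and Flt1 are among the 9 endothelial markers. Nearest to Kcnj8 were Sema6b (0.194), Axin2 (0.213), P3h3 (0.214), Ror1 (0.215) and Pml (0.218). Nearest to Abcc8 were Sesn2 (0.062), Itgal (0.063), Cyb5rl (0.064), Dicer1 (0.066) and Parvg (0.070). The measure favours genes with a small range, as Abcc8 has, so distances are not comparable between genes with different ranges.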

How the data were processed

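Total RNA of 11 tissue pools went onto Affymetrix mouse transcriptome arrays, as the labels' protocols record. The authors deposited log2 values from RMA, run in Expression Console according to the submitters' processing notes. Versions and the genome build are not given in the sources used here. The table has 72688 features, 6732 of them controls. Of 65956 transcript clusters, 30604 pair with 1 symbol, 2146 with several and 33206 with none. The brightest row per gene left 30142 genes, with 825 symbols updated through RefSeq's GRCm38.p6 table.

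Tissue was the only factor in a limma 3.58.1 fit (R 4.3.3, lmFit and eBayes) over the 11 arrays, with no filter on dim genes and Benjamini-Hochberg adjustment over all genes. Where a dimmer tissue's mean, or single arrays of it (chosen after seeing the data), lay under the background bound, the bound took their place in the fold, written "at least". Pair differences were tested by exact permutation in scipy 1.17.1. Array number limits the precision. Medians of all genes per array ran from 5.63 to 5.84, with 182 to 276 genes above 16 on each.

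The 10 genes, the lists and the tests were chosen with earlier results of these data known. Named were the 10 genes, up to 4 called genes per list and comparison with the largest differences, other list genes whose role and value are given, and the 5 nearest profiles of 4 genes. Alternatives were centring, repeated quantile normalization, filters, array weights, a replicate block, a covariate from control features and leaving out each array. Promoter sequences are RefSeq's (GRCm38.p6), and both strands were searched.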

Additional observations from a re-analysis of the deposited data

Results flagged for a closer look

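Notch3 on adrenal medulla replicate 2, at 6.88, was the lowest of 4 arrays, and the other 3 shared the value 6.89. The gap filled the whole range of the group, which was only 0.0034 log2 units. It was the only 1 flagged of 20 groups of 4 arrays or more checked for a far array. With 3 tied values the gap fills the range by construction. The usual chance rate of about 1 in 20 therefore does not apply to it.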

How the results depend on the processing

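Between carotid body and adrenal medulla, carotid body and ganglion, and adrenal medulla and ganglion, limma called 5, 6 and 4 of the 10 genes. With no fold limit it called 6, 8 and 9, and with a replicate block 5, 6 and 4. The share of all genes called with no fold limit is not given here, so those counts have no comparator. Median centring and array weights each gave 4, 6 and 4, because Abcc9 fell to 0.94 and 0.93 between carotid body and adrenal medulla (limma adjusted p = 0.00127 and 0.000102). No member difference changed sign when it was called. Replicate numbers did not pair the arrays: 1 of 11 arrays correlated best with its own number. Repeated quantile normalization moved the share of calls that were higher over all genes from 40.4% to 51.2% for carotid body against ganglion and from 43.3% to 53.9% for adrenal medulla against ganglion, and median centring moved it from 55.1% to 44.5% for carotid body against adrenal medulla. With the 99th percentile of the silent families as the bound, 7, 6 and 4 of the 10 genes lay above it in carotid body, adrenal medulla and ganglion instead of 10, 10 and 9. The share of all genes above this stricter bound is not given here. Cspg4 lay above it in carotid body only, and Vtn, Kcnj11 and Abcc8 in no tissue. In ganglion, Notch3 (6.09) and Kcnj8 (6.25) were under its value of 6.44, so their folds against ganglion rest on a dim signal.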
